A study of Mus musculus with 8 samples.

Results

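The metabotropic glutamate receptor genes Grm2, Grm3, Grm4, Grm5, Grm7 and Grm8 were chosen by symbol, which gave 6 of the 14353 genes in the table. All 6 had values in every library, exceeded 1 CPM (reads scaled to library size) in 8 of 8 libraries and were tested. The libraries came from ventral pallidum (VP) tissue of untreated mice that were homozygous for VGluT2-Cre and heterozygous for Rpl22, the RiboTag allele that puts an HA tag on ribosomes after Cre recombination. The TRAP fraction holds mRNA pulled down with HA-tagged ribosomes, and the INPUT fraction holds mRNA of all VP cells, from an aliquot of the lysate taken before the pulldown, although the methods elsewhere speak of unbound material. The labels name 4 pools, VP1.6 of 7 mice aged 9 to 12 weeks and VP2.2 of 10, VP2.6 of 11 and VP2.11 of 10 mice aged 10 to 16 weeks, all with males and females together. Each pool gave 1 TRAP and 1 INPUT library, so that n = 4 per fraction. Recombination is permanent, so cells that expressed vGluT2 only earlier in life also carry the tag, and the dissection could take in striatal tissue next to the VP. By the account in the methods, that tissue lacks vGluT2 and should not contribute to the pulldown.

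Metabotropic glutamate receptors are G protein-coupled receptors that act more slowly than the ion channels opened by glutamate. Group I receptors, here Grm5, couple to Gq and phospholipase C and sit mostly beside the postsynaptic density. Group II (Grm2, Grm3) and group III (Grm4, Grm7, Grm8) couple to Gi/o, lower cyclic AMP and act largely as presynaptic brakes on transmitter release, and Grm3 is also made by astrocytes. In the basal ganglia, Grm5 is abundant in striatal projection neurons and Grm4 is known from the striatopallidal synapse.

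Among the receptors, Grm2, Grm8 and Grm7 were higher in TRAP than in INPUT, by 3.46-fold, 2.63-fold and 1.67-fold. Grm4 was 1.59-fold lower in TRAP, a difference that passed the test on the fraction alone and missed the threshold once the pools were added as a block. No difference was detected for Grm5 or Grm3, the most abundant members. Group II held 1 receptor that passed the test and 1 that did not, and group III held receptors on both sides. Levels are log2 CPM scaled by the authors between libraries. Each difference was tested with limma across 14249 genes, with Benjamini-Hochberg adjustment and a threshold of 0.05. It was fitted on the fraction alone and again with a replicate block for the pools. Values listed by pool begin with VP1.6 and VP2.2 and end with VP2.6 and VP2.11. Where bulk RNA is lower in a fraction, fewer cells of a type and less RNA per cell cannot be told apart.

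The test of fraction alone called 47.9% of all genes, 23.2% higher and 24.8% lower in TRAP, and the test with the block called 32.2%, 15.4% higher and 16.8% lower. Of the 6 receptors, 3 were higher and 1 was lower without the block, and 3 were higher and 0 were lower with it. TRAP and INPUT libraries did not overlap for 4 of the 6 receptors, against 47.7% of all genes, 23.3% with TRAP above INPUT and 24.4% with TRAP below it. Slc17a6, which encodes vGluT2, was between 130 and 162 CPM in the TRAP libraries and between 14.4 and 39.4 CPM in the INPUT libraries (limma with the block, adjusted p = 7.3e-06). Of 3 markers of other glutamatergic neurons, Slc17a7 and Tbr1 were also higher in TRAP, by 1.45 and 3.16 on the log2 scale, and Slc17a8 differed by -0.03 (adjusted p = 0.965 with the block). Across all genes, each library was compared with the mean of its fraction's remaining 3, and the lowest correlations were those of TRAP VP2.11 (Pearson's r = 0.939, against 0.972 to 0.976) and INPUT VP2.2 (r = 0.974, against 0.984 to 0.990). The files give no totals. Whole-read steps in the TRAP minus INPUT differences of low values put the effective depth of VP2.2 at about 12.5 M (TRAP) and 37.7 M (INPUT) reads. For VP2.6 it was 12.9 M and 25.6 M, and the depth of the other pools is unknown.

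Group I was represented by Grm5 (ENSMUSG00000049583), a protein-coding gene of the plus strand at chr7:87584168-88134907 (GRCm38). Its TRAP levels were 6.49, 7.20, 6.61 and 7.22 log2 CPM, and its INPUT levels were 7.17, 6.14, 7.06 and 6.64. The fractions overlapped, and the lowest of the 8 libraries was INPUT VP2.2. The TRAP mean was 121 ± 31.6 CPM and the INPUT mean 112 ± 33.6 CPM (SD, n = 4 each). The difference of 0.13 ± 0.25 on the log2 scale (SE) did not pass the test, with limma adjusted p-values of 0.698 (no block) and 0.759 (block). The 95% interval with the block ran from -0.46 to 0.72, so the values are compatible with a change in either direction within those limits. Within pools the difference was -0.68, 1.06, -0.45 and 0.58, positive in 2 pools and negative in 2.

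**Figure D1:**
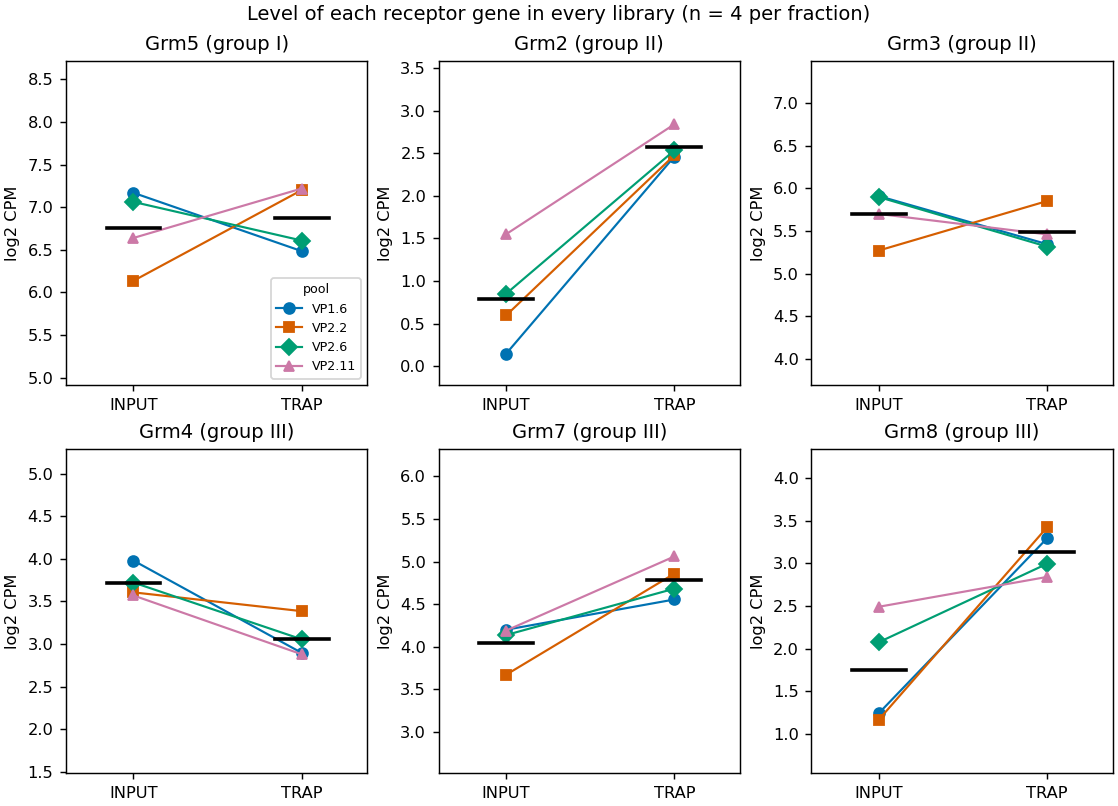
Level of each receptor gene in log2 CPM (vertical axis, spanning the same number of log2 units in every panel) in the INPUT and TRAP library of each pool, with a line joining the libraries of 1 pool and a black bar at the mean of 4. Lines for Grm2, Grm7 and Grm8 all rise from INPUT to TRAP, those of Grm4 all fall, and those of Grm5 and Grm3 cross.

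In group II, Grm2 was the receptor that differed most between the fractions. Grm2 (ENSMUSG00000023192) encodes an autoreceptor of glutamatergic terminals and lies on the minus strand at chr9:106643095-106656082. Its TRAP levels of 2.46, 2.48, 2.53 and 2.84 log2 CPM were all above its INPUT levels of 0.15, 0.60, 0.85 and 1.55. TRAP libraries lay close together and INPUT libraries spread over more than 1 log2 unit, the highest being INPUT VP2.11. The means were 6.01 ± 0.780 CPM in TRAP and 1.84 ± 0.781 CPM in INPUT (SD, n = 4 each). The log2 fold change was 1.79 ± 0.31 (SE; limma adjusted p = 0.00116), and with the block the SE was 0.42 and the adjusted p was 0.00500. Grm2 was higher in 4 of 4 pools, by 2.31, 1.88, 1.68 and 1.29 log2 units. These values rest on few reads, about 69 in TRAP and 57 in INPUT of VP2.2, and about 74 and 46 in VP2.6, from INPUT libraries about 3 and 2 times as deep as the TRAP libraries. The call held in all 27 alternative settings, with log2 fold changes between 1.34 and 2.24.

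Grm3 (ENSMUSG00000003974; minus strand, chr5:9485541-9725170), the other group II gene, showed no such difference. TRAP levels were 5.35, 5.85, 5.32 and 5.46 log2 CPM and INPUT levels were 5.91, 5.27, 5.90 and 5.70. The fractions overlapped, and VP2.2 held both the highest TRAP level and the lowest INPUT level. Means were 45.6 ± 8.30 CPM in TRAP and 52.6 ± 10.0 CPM in INPUT (SD, n = 4 each), a log2 difference of -0.20 ± 0.18 (SE; limma adjusted p = 0.378, and 0.558 with the block). The 95% interval with the block was -0.72 to 0.32. Without VP2.2 the difference was -0.46 and passed the test of fraction alone (limma adjusted p = 0.0132) but not the test with the block (adjusted p = 0.0975). The 2 group II receptors differed in their TRAP minus INPUT values in every pool, by 1.99 ± 0.72 log2 units on average (SD, 4 pools, range 1.30 to 2.88). With 4 pools the exact sign-flip permutation test cannot give a two-sided p below 0.125, which this pair reached, and which became 0.170 after adjustment over 15 pairs of receptors.

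The RefSeq promoter table (GRCm38) held windows for 4 of the 6 receptors, namely Grm2, Grm3, Grm7 and Grm8. The 250 bases upstream of the RefSeq start of Grm2 (chr9:106656110-106656359, minus strand) and of Grm3 (chr5:9725353-9725602, minus strand) are shown because this pair differed within a group. Gene positions given above follow another annotation (GENCODE), whose starts lie downstream of both windows, further for Grm3. The sequences are written 5′ to 3′ on the gene's strand, with CG dinucleotides in capitals.
Grm2: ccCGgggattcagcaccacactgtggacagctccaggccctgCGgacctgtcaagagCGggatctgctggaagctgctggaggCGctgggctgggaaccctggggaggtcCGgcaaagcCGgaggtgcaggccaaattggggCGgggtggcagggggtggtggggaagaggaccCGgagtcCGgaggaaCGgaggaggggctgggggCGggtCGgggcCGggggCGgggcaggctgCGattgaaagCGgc
Grm3: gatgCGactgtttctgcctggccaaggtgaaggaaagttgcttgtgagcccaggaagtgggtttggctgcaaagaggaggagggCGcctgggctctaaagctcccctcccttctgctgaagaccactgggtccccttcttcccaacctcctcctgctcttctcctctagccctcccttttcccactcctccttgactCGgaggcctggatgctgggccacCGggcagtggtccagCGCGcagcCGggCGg
The Grm2 window held 16 CG dinucleotides and a GC content of 71.2%, and the Grm3 window held 8 and 62.4%, against a median of 6 CG dinucleotides over 32851 windows of that length. The 2 windows of Grm7 held 8 and 9 CG dinucleotides, and the 3 windows of Grm8 held 29, 8 and 2. A relation of these counts to the TRAP minus INPUT differences was not tested. The E-box letters CANNTG, read on both strands, were in neither the Grm2 nor the Grm3 window, while 66.2% of all windows held them. They were also absent from the Grm7 windows, and among the Grm8 windows only the one with 2 CG dinucleotides held them.

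Group III receptors fell on both sides. Grm8 (ENSMUSG00000024211; minus strand, chr6:27275119-28135178), a presynaptic receptor with high affinity for glutamate, had TRAP levels of 3.29, 3.42, 2.99 and 2.84 log2 CPM and INPUT levels of 1.24, 1.16, 2.07 and 2.49. The fractions did not overlap, but the gap was 0.35 log2 units in VP2.11, against 2.05, 2.26 and 0.92 in the other pools. Mean levels were 8.91 ± 1.63 CPM in TRAP and 3.61 ± 1.61 CPM in INPUT (SD, n = 4 each). The log2 fold change was 1.395 ± 0.31 (SE; limma adjusted p = 0.00470), and with the block the SE was 0.39 and the adjusted p was 0.0146. About 134 TRAP and 85 INPUT reads lay behind the values of VP2.2, and about 103 and 108 behind those of VP2.6. With the block, the call was lost when VP1.6 (adjusted p = 0.0789) or VP2.2 (adjusted p = 0.0730) was left out.

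Grm7 (ENSMUSG00000056755; plus strand, chr6:110645581-111567230), the receptor of presynaptic active zones with low affinity for glutamate, had a smaller difference. TRAP levels were 4.56, 4.86, 4.68 and 5.06 log2 CPM and INPUT levels were 4.20, 3.67, 4.14 and 4.19. No INPUT library reached the lowest TRAP library, and INPUT VP2.2 lay below the other INPUT libraries. The means were 27.9 ± 4.29 CPM in TRAP and 16.7 ± 2.69 CPM in INPUT (SD, n = 4 each). Grm7 was higher in 4 of 4 pools, by 0.36, 1.19, 0.54 and 0.87, with a log2 fold change of 0.74 ± 0.17 (SE; limma adjusted p = 0.00596). With the block the SE was 0.25 and the adjusted p was 0.0350, and leaving out any 1 pool raised that value to between 0.0613 and 0.0903.

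Grm4 (ENSMUSG00000063239; minus strand, chr17:27422387-27521403) was the only receptor lower in TRAP in every pool. TRAP levels were 2.90, 3.39, 3.06 and 2.88 log2 CPM and INPUT levels were 3.98, 3.61, 3.72 and 3.57. The fractions did not overlap, and TRAP VP2.2 came nearest to the INPUT libraries. Means were 8.39 ± 1.44 CPM in TRAP and 13.3 ± 1.77 CPM in INPUT (SD, n = 4 each), a log2 fold change of -0.67 ± 0.18 (SE; limma adjusted p = 0.0120). With the block the SE was 0.29 and the difference did not pass the test (adjusted p = 0.0898, 95% interval -1.28 to -0.05). It passed with the block when library weights were added (-0.77, adjusted p = 0.0211) or the exon length trend was taken out (-0.77, adjusted p = 0.0322). Without the block, leaving out VP1.6 or VP2.6 also ended the call, with adjusted p-values of 0.0913 and 0.0647. Within pools Grm4 differed from Grm7 by -1.40 ± 0.14 log2 units and from Grm8 by -2.06 ± 0.93 (SD, 4 pools), with the same sign in 4 of 4 pools for both. The difference between Grm7 and Grm8, -0.66 ± 0.95, was negative in 3 of 4 pools (exact sign-flip permutation p = 0.375). In an exact two-sided permutation test over the libraries, each of Grm2, Grm4, Grm7 and Grm8 gave p = 0.0286, the smallest that 4 against 4 allows, while Grm5 gave 0.657 and Grm3 0.371. That test ignores the pools, and the exact sign-flip permutation test within pools gave p = 0.125, its smallest value, for the same 4 receptors.

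**Figure D2:**
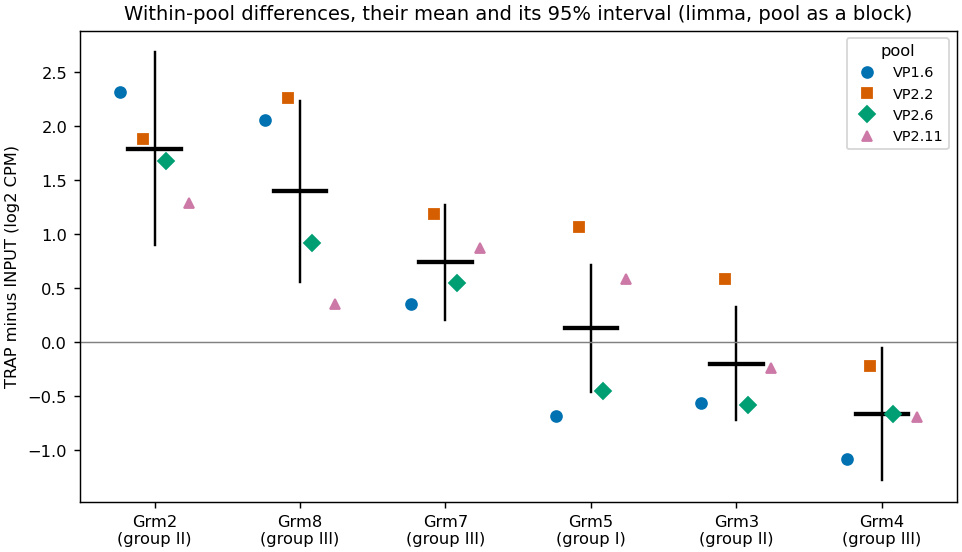
TRAP minus INPUT difference in log2 CPM of each receptor within each pool (points), with the mean of 4 pools (bar) and its 95% interval from limma with the pool as a block (line). The intervals of Grm2, Grm8 and Grm7 lie above 0, that of Grm4 reaches up to -0.05, and those of Grm5 and Grm3 include 0. For Grm4 the interval is for 1 gene and its adjusted p was 0.0898.

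Genes were ranked by level only after division by exon length. Grm3, with 14.9 ± 2.72 CPM per kb, and Grm5, with 11.8 ± 3.09 CPM per kb, were the most abundant receptors in TRAP, followed by Grm7 with 4.74 ± 0.729 CPM per kb (SD, n = 4). Grm4 (1.404 ± 0.241), Grm2 (1.23 ± 0.159) and Grm8 (0.900 ± 0.165 CPM per kb) were lowest. In TRAP, Grm3 exceeded Grm5 in 3 of 4 libraries, by 0.36 ± 0.26 log2 units (SD), and Grm4 exceeded Grm2 in 3 of 4, by 0.19 ± 0.36, so neither pair of neighbours was separated in every library. The steps from Grm5 to Grm7 and from Grm7 to Grm4, of 1.29 ± 0.20 and 1.76 ± 0.31, held in 4 of 4. Grm2 exceeded Grm8 in 4 of 4 TRAP libraries, by 0.46 ± 0.43, a mean close to its SD. On average their order reversed with the length of the longest transcript.

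The INPUT order was the same. Grm3 stood at 17.2 ± 3.29 CPM per kb, Grm5 at 10.9 ± 3.28, Grm7 at 2.85 ± 0.457, Grm4 at 2.22 ± 0.297, Grm2 at 0.376 ± 0.160 and Grm8 at 0.365 ± 0.163 (SD, n = 4). Here Grm4 lay 2.65 ± 0.74 log2 units above Grm2 in 4 of 4 libraries, whereas Grm2 exceeded Grm8 in 2 of 4. As a share of the summed per-length level of the 6 receptors, Grm3 made up 42.8% in TRAP and 50.9% in INPUT, Grm5 33.3% and 31.7%, and Grm7 13.6% and 8.47%. Grm4 made up 4.05% in TRAP and 6.68% in INPUT, Grm2 3.56% and 1.15%, and Grm8 2.62% and 1.09%. Dividing by the longest transcript instead kept 3 of 6 ranks in TRAP and 4 of 6 in INPUT. The length of Grm8 changed most, from 9898 bases of exon to 4799 bases. On the mean log2 level Grm8 then stood above Grm4 and Grm2 in TRAP and above Grm2 in INPUT. Its last place and its share therefore rest on the length used.

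**Figure D3:**
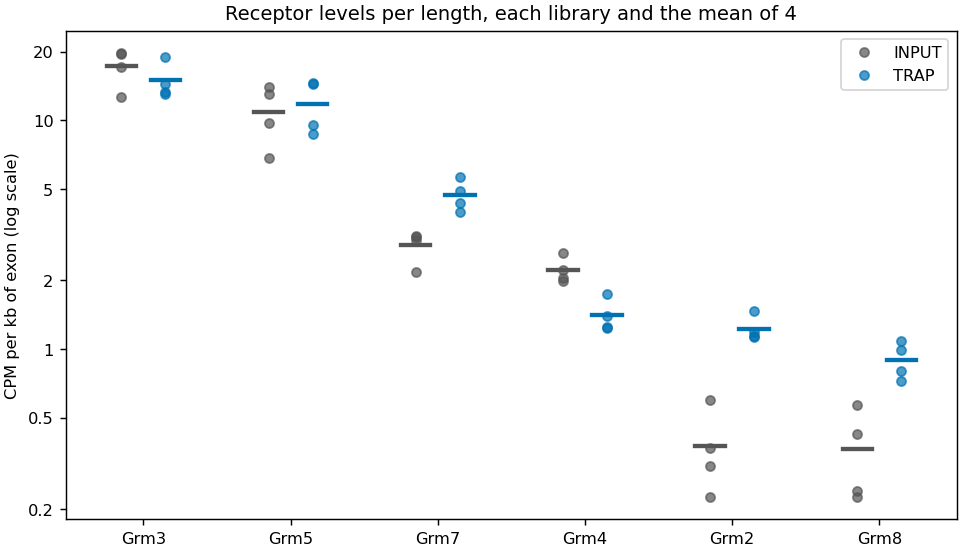
CPM per kb of exon (log axis) of each receptor in the 4 INPUT and 4 TRAP libraries (points) with the mean of 4 (bar). Grm3 and Grm5 lie near or above 10 CPM per kb in most libraries, and Grm2 and Grm8 lie below 1 CPM per kb in every INPUT library.

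Marker genes of other cell types also differed between fractions and pools. Of 6 markers of striatal projection neurons, 5 were lower in TRAP by limma with and without the block, and their summed level was 376 to 581 CPM in TRAP and 890 to 1350 CPM in INPUT. Of 6 astrocyte markers, 4 were lower in both fits, with sums of 328 to 507 CPM in TRAP and 498 to 686 CPM in INPUT. Of 3 markers of GABAergic neurons, 1 was lower, and the sum was 584 CPM in INPUT VP2.2 against 1214 to 1394 CPM in the other INPUT libraries. By pool, the TRAP minus INPUT difference of the GABAergic sum was -0.60, 1.43, -0.18 and -0.22 on the log2 scale. Its highest value fell in VP2.2, as it did for Grm5, Grm3, Grm4, Grm7 and Grm8. The sums of vGluT2, general neuronal, cholinergic, astrocyte, oligodendrocyte and oligodendrocyte precursor markers were also highest there (3.17, 2.12, 1.80, 0.02, -1.22 and 0.75). Those of striatal, other glutamatergic, microglia and endothelial or pericyte markers were highest in other pools. Of the GABAergic markers, Slc32a1 was lower in TRAP in every pool (-0.60 in VP2.2). Gad1 and Gad2 were higher in TRAP in VP2.2 only, by 1.66 and 1.29, and passed neither fit. The GABAergic sum rests mostly on Gad1 (mean 613 CPM in TRAP and 516 CPM in INPUT) and Gad2 (528 and 560 CPM). Slc32a1 had means of 10.9 and 25.5 CPM. The astrocyte sum differed by -0.98, 0.02, -1.01 and -0.72, and the striatal sum was lower in TRAP in every pool, by differences between -1.84 and -0.88. Of 5 microglia markers, 5 were lower without the block and 4 with it, with sums of 22.7 to 31.5 CPM in TRAP and 79.8 to 126 CPM in INPUT. Of 5 oligodendrocyte markers, 4 were lower in both fits and 1 was higher without the block, and the sums were 900.1 to 1631 CPM in TRAP and 3506 to 3807 CPM in INPUT. The part of these cell types in the values of Grm3, Grm4 and Grm5 was not tested. Of 5 general neuronal markers, 5 were higher in TRAP without the block and 4 with it, Snap25 by 1.93 on the log2 scale, with sums of 19041 to 27473 CPM in TRAP and 5480 to 10591 CPM in INPUT. The 3 markers of other glutamatergic neurons summed to 117 to 173 CPM in TRAP and 24.5 to 45.6 CPM in INPUT, and 2 of them were higher in both fits. The part of these neurons in the values of Grm2, Grm7 and Grm8 was not tested. Without the block, 1 cholinergic marker of 3 was higher and 1 lower, 1 marker of oligodendrocyte precursors of 4 was higher and 2 lower, and 1 endothelial or pericyte marker of 4 was higher.

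**Figure D4:**
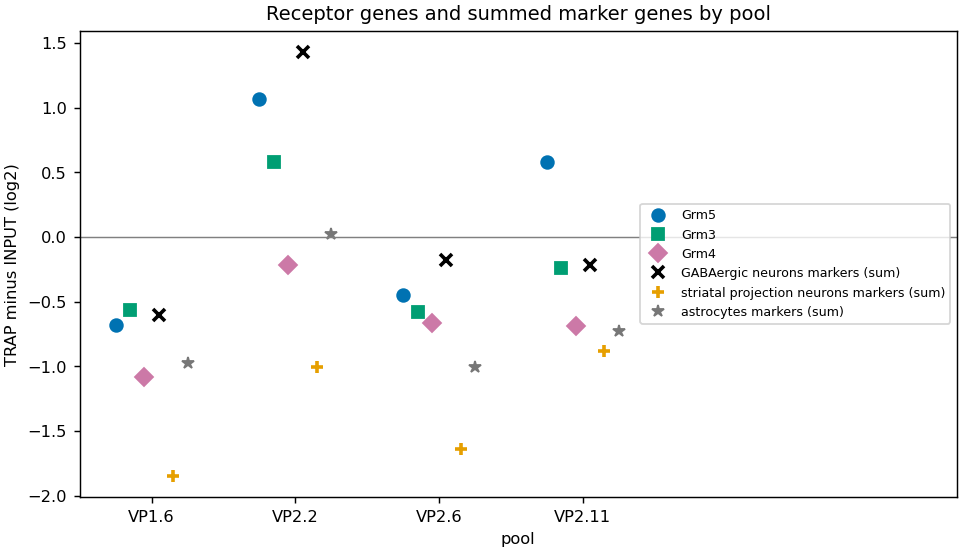
TRAP minus INPUT difference on the log2 scale of Grm5, Grm3 and Grm4 and of the summed markers of GABAergic neurons, striatal projection neurons and astrocytes in each pool. All but the striatal sum are highest in VP2.2, with the GABAergic sum, Grm5 and Grm3 at 1.43, 1.06 and 0.58. The striatal sum is below 0 in every pool.

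The ligand, partner and signalling genes of the receptors were taken from 6 lists of 60 genes, 57 of which had values. Without the block, 16 of 57 were higher and 9 lower in TRAP, against 23.2% and 24.8% of all genes. With the block, 11 were higher and 3 lower, against 15.4% and 16.8%. The shares of higher genes were near those of all genes, and the shares of lower genes were below them.

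Among genes for N-acetylaspartylglutamate (NAAG), a peptide that activates Grm3, Slc17a5, a vesicular and lysosomal transporter, was higher in TRAP (log2 fold change 0.84 ± 0.22, SE; limma adjusted p = 0.00911, and 0.0425 with the block). Folh1, the peptidase that cleaves NAAG, and Rimklb, an NAAG synthetase, passed only without the block, with log2 differences of -1.27 (adjusted p = 0.0290, 0.111 with the block) and -0.36 (0.0436, 0.225). Levels of Folh1 were low, 1.18 ± 0.50 CPM in TRAP and 2.59 ± 0.41 CPM in INPUT (SD, n = 4 each). Its difference was -2.73 in VP2.6, against -1.17, -0.67 and -0.49 in VP1.6, VP2.2 and VP2.11. The list's median was -0.37, against -0.05 over all genes.

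Of 12 tested genes of the Gq pathway through which Grm5 signals, 7 were higher and 1 lower without the block, and with the block 5 were higher and 0 lower. The list's median log2 fold change was 0.57. Plcb4 and Plcb1, the phospholipases that cleave phosphoinositides, rose by 1.91 and 1.62 on the log2 scale, and the protein kinase C gene Prkca rose by 1.62. Plcb4 had 223 ± 8.25 CPM in TRAP and 62.2 ± 19.7 CPM in INPUT (SD, n = 4 each; limma with the block, adjusted p = 8.55e-05). Dgkz, a diacylglycerol kinase named after its value was seen, was also higher in both fits, by 0.67. Gnaq, the G protein subunit, differed by 0.09 (adjusted p = 0.661), and its close relative Gna11, the 1 gene lower without the block and also named after its value was seen, by -0.64 (adjusted p = 0.0213, 0.0574 with the block).

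Scaffold genes of group I receptors were divided. Of 11 tested, 2 were higher and 2 lower without the block, and 2 and 1 with it, with a median of -0.19. Grasp and Ncdn, whose products bind the tails of group I receptors, rose by 0.93 and 0.71 (limma adjusted p with the block, 0.0441 and 0.0258). Shank1, a core protein of the postsynaptic density, fell by 0.78 on the log2 scale (adjusted p = 0.0176 with the block). Homer1, which tethers group I receptors to Shank proteins, differed by -0.52 ± 0.13 (SE; adjusted p = 0.00634, and 0.0698 with the block), and Homer2 by -0.52 ± 0.39 (adjusted p = 0.289).

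For the Gi/o pathway of groups II and III, 2 of 17 genes were higher and 4 lower without the block, and 1 and 2 with it. Adcy5, the main adenylyl cyclase of the striatum, fell by 1.04 on the log2 scale, from 148 ± 22.7 CPM in INPUT to 72.8 ± 18.1 CPM in TRAP (SD, n = 4 each; limma with the block, adjusted p = 0.00387). Gnai2 fell by 0.75 (0.0182 with the block). Adcy1, a calcium-stimulated cyclase, rose by 0.88 (0.0390 with the block). Adcy9, higher by 0.56, and the G protein gene Gnb1 and kinase gene Prkaca, lower by differences of -0.52 and -0.35, passed only without the block; the last 2 were named after their values were seen. The median of the list was 0.12.

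Of 5 partners of group III receptors, 3 passed as higher in the fit without a block, 2 in the fit with one, and none was lower in either. Nsf, the fusion ATPase, and Grip1, a PDZ scaffold, rose by 1.62 and 1.43 (limma with the block, adjusted p = 7.45e-04 and 0.00122). Pick1, the PDZ protein that anchors Grm7, was higher by 0.44 without the block (adjusted p = 0.0295) and missed the threshold with it (0.213). Elfn1 and Elfn2, postsynaptic proteins that recruit group III receptors across the synapse, differed by -0.54 (adjusted p = 0.0731) and 0.08 (adjusted p = 0.762). Of 8 genes for receptor desensitization, only the arrestin gene Arrb2 passed, by 0.58 without the block (adjusted p = 0.0202, 0.125 with it).

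**Figure D5:**
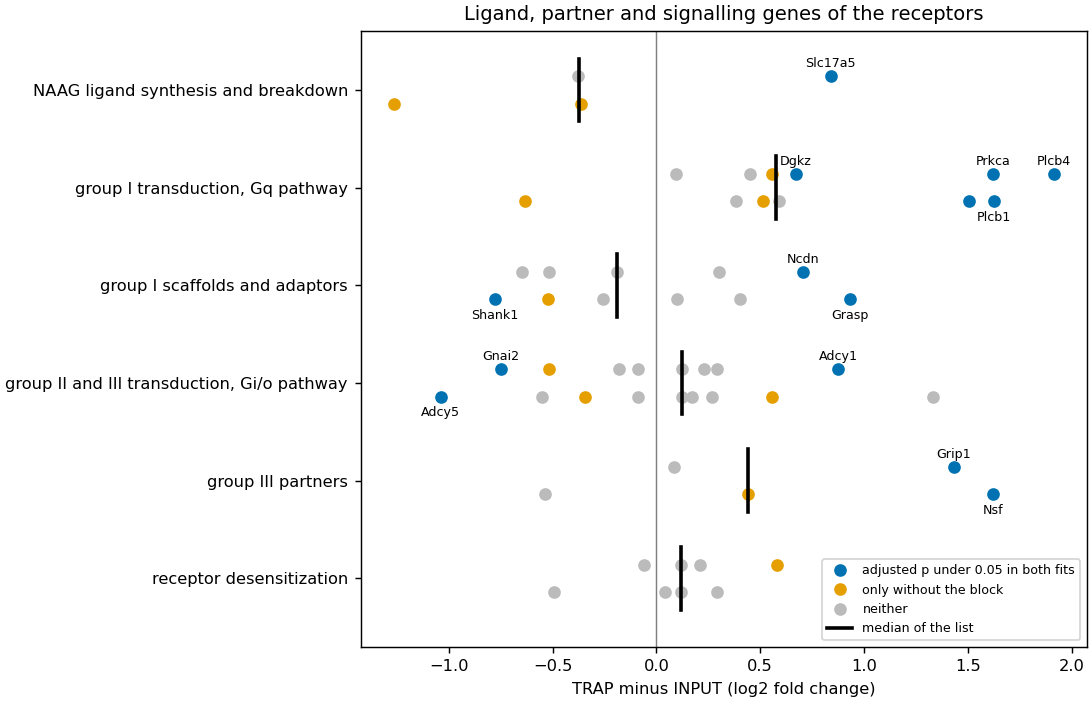
TRAP minus INPUT log2 fold change of the 57 ligand, partner and signalling genes, by list, coloured by whether the adjusted p was under 0.05 in limma with and without the block, with the median of each list (black line). The Gq list holds the largest differences, with Plcb4 at 1.91, and Adcy5 is the lowest gene called in both fits, at -1.04.

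The protein-coding genes most like each receptor over the 8 libraries, by Pearson's r of log2 CPM, were named as a description. They were Nova1 (r = 0.997) and Ski (0.991) for Grm5, Pigb (0.998) and Abi3bp (0.996) for Grm2, and Strip2 (0.9997) for Grm3. For the group III genes they were Tbc1d20 (0.997) and Lpar1 (0.996) for Grm4, Btbd11 (0.999) and Bbs1 (0.998) for Grm7, and Pla2g15 (0.994) and Prlr (0.991) for Grm8. The points share pools and fractions, and no relation between the genes was tested.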

How the data were processed

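RNA-seq of 4 TRAP and 4 INPUT libraries was analysed. The authors aligned reads to a mouse Ensembl assembly with STAR 2.5.1a, counted unique reads per gene with featureCounts, scaled them by TMM and deposited log2 CPM per library. The deposited table also holds the authors' own comparison (log2 fold changes, scores and p-values) and another column, a number of transcripts per gene, and none of these was used. In 3 libraries (both of VP2.11, and INPUT of VP1.6) the values carry only 3 digits. Of 14398 entries, 45 repeats of a gene were left out. The 14249 genes that exceeded 1 CPM in 3 or more libraries were compared on the log2 values, with no added pseudocount, with limma 3.58.1 (lmFit, eBayes with a trend) in R 4.3.3, Benjamini-Hochberg adjustment and a threshold of 0.05. The test was run on simulated data as a check of the code only, with far fewer genes changed than were called here. Permutation tests used SciPy 1.17.1 in Python 3.11.15. Gene positions and exon lengths came from GENCODE M21 (GRCm38).

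The labels give TRAP and INPUT of a pool the same name and the methods take both from 1 homogenate, so that pools pair the libraries. Deviations from the fraction means of libraries of the same pool were opposed (r = -0.745 to -0.495), and those of different pools were not (0.0457 to 0.441). How the deposited values came to have opposed deviations is not known and was not tested. Opposed deviations widen the spread within pools, so the fit with the replicate block is given beside each receptor's result and has the larger errors. Each pool holds several mice, and no p-value measures the spread between mice. The limma p-values without the block measure the spread of libraries within a fraction, taken as independent, which the opposed deviations do not bear out. The exact permutation test over libraries rests on the same assumption, and the overlap of the fractions is read from the same values. The limma p-values with the block measure how far the TRAP minus INPUT differences vary from pool to pool. Depth was estimated from whole-read steps in the TRAP minus INPUT differences of 2 pools and was not used in tests. Read numbers derived from it are approximate.

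Receptors and lists were chosen with earlier results of these data known. All receptors are named, list genes where they passed without the block (at most 4 per list, the largest) plus Homer1, Homer2, Elfn1, Elfn2, Pick1 and Folh1, and the 2 genes most alike each receptor. Some genes that this rule names are not reported here. Naalad2, Plcb3, Homer3 and the endothelial marker Cldn5 were not matched and not analysed here. Other pseudocounts, filters, scalings, weights, a length correction and left-out libraries were tried as alternatives.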

Additional observations from a re-analysis of the deposited data

Results flagged for a closer look

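Over the 6 receptors and 6 related genes, 24 groups of 4 libraries were examined for a library far from the other 3, and 2 stood apart by Dixon's test, where chance gives about 1 in 20 groups, or 1.2 here. Grm7 was at 3.67 log2 CPM in INPUT VP2.2, against 4.14 to 4.20 in the other INPUT libraries. Homer1 was at 6.95 log2 CPM in INPUT VP2.6, against 6.76 to 6.79 in the others.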

How the results depend on the processing

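Over 27 alternatives, Grm2 kept its direction and passed in 27, Grm8 in 25, Grm7 in 23 and Grm4 in 20. Grm8 and Grm7 lost the call only with the replicate block and a pool left out, and Grm4 with the replicate block (-0.67, adjusted p = 0.0898), without VP1.6 or VP2.6, and with the block and any 1 pool left out. With all pools, no weights and no correction, the replicate block changed no other call of a receptor. Where a cause is not named, it was not tested.

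Grm5 turned negative with array weights (-0.30, and -0.24 with the block), quantile normalization (-0.038) and the exon length trend taken out (-0.24 with and without the block), and ran from -0.19 to 0.40 with 1 pool or library left out. It was negative without pool VP2.2 (-0.19), pool VP2.11 (-0.024) or INPUT VP2.2 alone (-0.078). Grm3 was 0.072 with the length trend taken out, with and without the block, and passed the test with array weights (-0.43, limma adjusted p = 0.0125) but not with array weights and the block (-0.42, 0.100), and it ran from -0.46 to -0.075 with a pool or library left out. With 1 left out, Grm4 ran from -0.81 to -0.53, Grm7 from 0.59 to 0.87, Grm8 from 1.11 to 1.74 and Grm2 from 1.58 to 2.05. The length trend moved the median of all genes from -0.05 to 0.06.

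Genes higher in TRAP numbered 3300, 2199 with the block, and 1531 to 3332 with a pool or library left out. Genes lower numbered 3530, 2393 with the block, 1994 with the length trend taken out and the block, and 1673 to 3835 with 1 left out. A fold of at least 2 kept 3528 of 6830 calls. Partner and signalling genes higher in TRAP numbered 16, and 7 to 15 with 1 left out (8 without VP1.6 and 8 without VP2.6). Those lower numbered 9, 3 with the block, 14 with array weights, 5 with the length trend taken out and the block, and 1 to 10 with 1 left out (4 without VP2.6). The per-length order kept 3 of 6 ranks in TRAP and 4 of 6 in INPUT with the longest transcript, 2 in TRAP VP2.11, and 4 in INPUT VP1.6 and VP2.6. Depth was estimated for 2 of 4 pools, where Grm2 rests on about 46 to 74 reads per library. Leaving out a library or a pool with the block was chosen after seeing the data.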
